A study of Mus musculus with 16 samples.

Results

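The 10 genes described here code for 4 S100 proteins (S100a4, S100a6, S100a10 and S100a11), 4 annexins (Anxa1, Anxa2, Anxa5 and Anxa6) and the galectins Lgals1 and Lgals3. They were picked by symbol, with earlier results of these data known, and all 10 had an entry among the 53090 genes quantified in each library. RNA was sequenced from CD4+ T cells of WT C57BL/6 mice and of Aim2-/- mice bred on that background, which lack AIM2, a sensor of cytosolic DNA. Naïve cells (Tn, CD44 low and CD62L high) were isolated from the spleen with magnetic beads and lysed without culture. Treg samples were such cells after 48 h with antibodies to CD3 and CD28, recombinant human TGF-β and recombinant mouse IL-2, which drive the regulatory T cell program. The 4 groups, WT Tn, Aim2-/- Tn, WT Treg and Aim2-/- Treg, held 4 libraries each. The study describes sex- and age-matched animals without giving the ages here, and the sources used here do not say whether each library came from a separate mouse or culture, so p-values measure the spread between these libraries, which may be technical. The culture changes activation, cytokines and time together, and Tn cells had no 48 h culture without them, so these cannot be told apart.

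S100 proteins are small EF-hand proteins that bind calcium and then change shape and attach to partner proteins. Annexins bind acidic phospholipids of membranes in a calcium-dependent way, and some form complexes with S100 proteins, of which the tetramer of annexin A2 and S100A10 and the pairs of annexin A1 with S100A11 are textbook cases. Galectins bind β-galactoside sugars on glycoproteins, and galectin-1 and galectin-3 act on T cell survival and receptor clustering. In T cells, S100a4, S100a6, Anxa1, Anxa2, Lgals1 and Lgals3 are widely used as genes that are higher in effector and memory cells than in naïve cells.

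The S100 members lie on chromosome 3 in GRCm38 (GENCODE M21 coordinates), S100a4 (ENSMUSG00000001020.8) at chr3:90603771-90606045 and S100a6 (ENSMUSG00000001025.8) at chr3:90612882-90624181, with 6.8 kb between them. S100a11 (ENSMUSG00000027907.4) at chr3:93520488-93526287 and S100a10 (ENSMUSG00000041959.14) at chr3:93555080-93564643 stand 28.8 kb apart, and 2896.3 kb from that first pair. All 4 are on the plus strand. The annexin genes are dispersed: Anxa1 (ENSMUSG00000024659.14) at chr19:20373428-20390944 on the minus strand, Anxa2 (ENSMUSG00000032231.14) at chr9:69453620-69491795 on the plus strand, Anxa5 (ENSMUSG00000027712.13) at chr3:36448923-36475894 on the minus strand and Anxa6 (ENSMUSG00000018340.13) at chr11:54979108-55033445 on the minus strand. Lgals1 (ENSMUSG00000068220.5) is at chr15:78926725-78930465 and Lgals3 (ENSMUSG00000050335.16) at chr14:47367751-47386160, both on the plus strand. All are annotated as protein-coding, and the values are sums over a gene's exons.

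RefSeq promoter sequences (GRCm38.p6) were matched for 7 of the 10 genes. Those of 5 genes are shown because they include genes that were lower and genes that were higher after culture in at least 1 genotype. Each window is on the plus strand, S100a4 at chr3:90603520-90603769, S100a6 at chr3:90612644-90612881, S100a11 at chr3:93520246-93520487, Anxa2 at chr9:69453433-69453619 and Lgals3 at chr14:47373610-47373812, and holds no annotated exon base. The Lgals3 window lies inside the annotated span of the gene, downstream of its annotated 5' end. Capitals mark matches on either strand to any of these motifs. The box bound by the core transcription machinery was searched as TATAAA. The box bound by Sp1 was searched as GGGCGG. The KLF factor box was searched as CACCC. The AP-1 site was searched as TGANTCA. The STAT site was searched as TTCNNNGAA.
S100a4: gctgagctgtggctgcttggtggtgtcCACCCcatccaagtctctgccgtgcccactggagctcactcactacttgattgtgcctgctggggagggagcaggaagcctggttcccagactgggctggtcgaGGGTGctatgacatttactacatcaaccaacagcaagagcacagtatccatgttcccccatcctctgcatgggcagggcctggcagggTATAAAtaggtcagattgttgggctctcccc
S100a6: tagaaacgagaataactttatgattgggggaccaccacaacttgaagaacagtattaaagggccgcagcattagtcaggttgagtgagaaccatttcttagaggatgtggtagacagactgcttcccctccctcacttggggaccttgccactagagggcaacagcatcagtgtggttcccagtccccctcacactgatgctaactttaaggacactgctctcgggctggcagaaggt
S100a11: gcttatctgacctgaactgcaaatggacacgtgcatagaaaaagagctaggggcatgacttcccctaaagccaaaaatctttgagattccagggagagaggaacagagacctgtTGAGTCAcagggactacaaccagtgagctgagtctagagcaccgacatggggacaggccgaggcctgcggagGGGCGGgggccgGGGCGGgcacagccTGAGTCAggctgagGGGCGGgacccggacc
Anxa2: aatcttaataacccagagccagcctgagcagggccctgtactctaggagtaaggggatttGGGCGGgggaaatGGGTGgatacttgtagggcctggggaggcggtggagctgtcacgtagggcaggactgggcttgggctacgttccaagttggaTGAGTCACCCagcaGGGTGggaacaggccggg
Lgals3: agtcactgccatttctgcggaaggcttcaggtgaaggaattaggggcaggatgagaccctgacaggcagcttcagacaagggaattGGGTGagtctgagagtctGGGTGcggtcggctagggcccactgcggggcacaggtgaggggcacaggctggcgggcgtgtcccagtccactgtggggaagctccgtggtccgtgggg
S100a4 holds a TATA box, S100a11 holds 2 AP-1 matches and 3 GC boxes, Anxa2 holds an AP-1 match that overlaps a KLF box, and the S100a6 window shown holds no match. Over the whole 250 bases before the start, the AP-1 letters were in 2 of the 7 member promoters and in 6.7% of 32851 promoters, the TATA box in 3 of 7 and in 12.4%, the GC box in 3 of 7 and in 32.7%, and the KLF box in 4 of 7 and in 52.0%. The STAT letters, in 7.0% of promoters, were in 0 of the 7. S100a11 fell and Anxa2 rose in WT cells after culture, and both hold AP-1 letters.

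The libraries held 22516424 to 34533316 counts each. Values are given in CPM, which are counts relative to library size, scaled by TMM (a method that corrects for library composition), and 3 counts, taken as the floor, stood for 0.0869 to 0.133 CPM. The floor covers counting error alone. Aim2 was at 34.9 ± 2.86 CPM in WT Tn and 7.29 ± 1.29 in Aim2-/- Tn, and at 40.3 ± 3.11 in WT Treg and 9.33 ± 1.58 in Aim2-/- Treg (mean ± SD, n = 4), with no overlap of the genotypes. The 9 CD4 T cell markers had counts in every library, with a summed level of 4648 to 5461 CPM in Tn and 2518 to 2787 CPM in Treg, and Foxp3 rose from 1.97 to 3.98 CPM in Tn to 282.5 to 573.7 CPM in Treg. Of the other Treg markers, Il2ra rose from 2.65 to 4.58 CPM in Tn to 1321 to 1513 CPM in Treg. Ctla4 (12.7 to 79.7 CPM in Tn, 56.0 to 84.25 in Treg) and Ikzf2 (2.61 to 3.64 and 3.44 to 14.9) overlapped between Tn and Treg. Within WT Tn, Ctla4 was at 79.4 and 79.7 CPM in replicates 1 and 2 and at 12.7 and 17.4 CPM in replicates 3 and 4. Markers of other cells were low in Tn, and their summed levels were lower in Treg, though the B cell sums overlapped. The 8 myeloid markers summed to 12.2 to 19.7 CPM in Tn and 1.81 to 3.97 CPM in Treg, the 5 B cell markers to 1.06 to 2.23 and 0.378 to 1.15, the 4 CD8 T and NK cell markers to 10.7 to 18.5 and 2.29 to 4.14, and the 4 erythroid markers to 0.67 to 4.89 and 0.0342 to 0.150. Single genes of these lists did not all follow the sums. Cd8a, at 0 to 0.135 CPM in Tn and 0.0609 to 0.342 in Treg, and Adgre1, at 0 to 0.337 and 0 to 0.649, had higher means in Treg in both genotypes, and Alas2 had a higher mean in Treg in WT. Among the myeloid markers, S100a8 was at 0 in all 16 libraries and S100a9 reached at most 0.0366 CPM. The 13 markers of antigen-experienced T cells summed to 262.0 to 316.4 CPM in WT Tn, to 254.3, 266.7 and 303.4 CPM in Aim2-/- Tn replicates 4, 2 and 1, and to 380.4 CPM in Aim2-/- Tn replicate 3, which stands apart and is left out in turn below.

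In WT cells, culture in Treg conditions lowered the 4 S100 genes, Anxa5 and Anxa6 and raised Anxa2, Lgals1 and Lgals3. Of the 9 members with enough counts to be tested, 9 passed an adjusted p of 0.05 in the quasi-likelihood test of edgeR with Benjamini-Hochberg adjustment over 13675 genes, 3 higher and 6 lower. Over all genes tested 76.9% passed, 37.7% higher and 39.2% lower, so a call by itself is common in this contrast, and the sizes and directions carry the description. The groups did not overlap for 8 of the 9, against 72.9% of all genes. The median log2 fold change was -0.71 over the 9 members and -0.05 over all genes tested. In Aim2-/- cells, 8 of 9 members passed, 2 higher and 6 lower, beside 79.3% of 13713 genes (39.1% higher, 40.2% lower), 7 did not overlap against 74.7%, and the medians were -0.63 and -0.04. Anxa1 had too few counts after culture to be tested in either genotype under the filter on low counts. In bulk RNA, fewer cells of a type and less RNA per cell cannot be told apart.

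**Figure D1:**
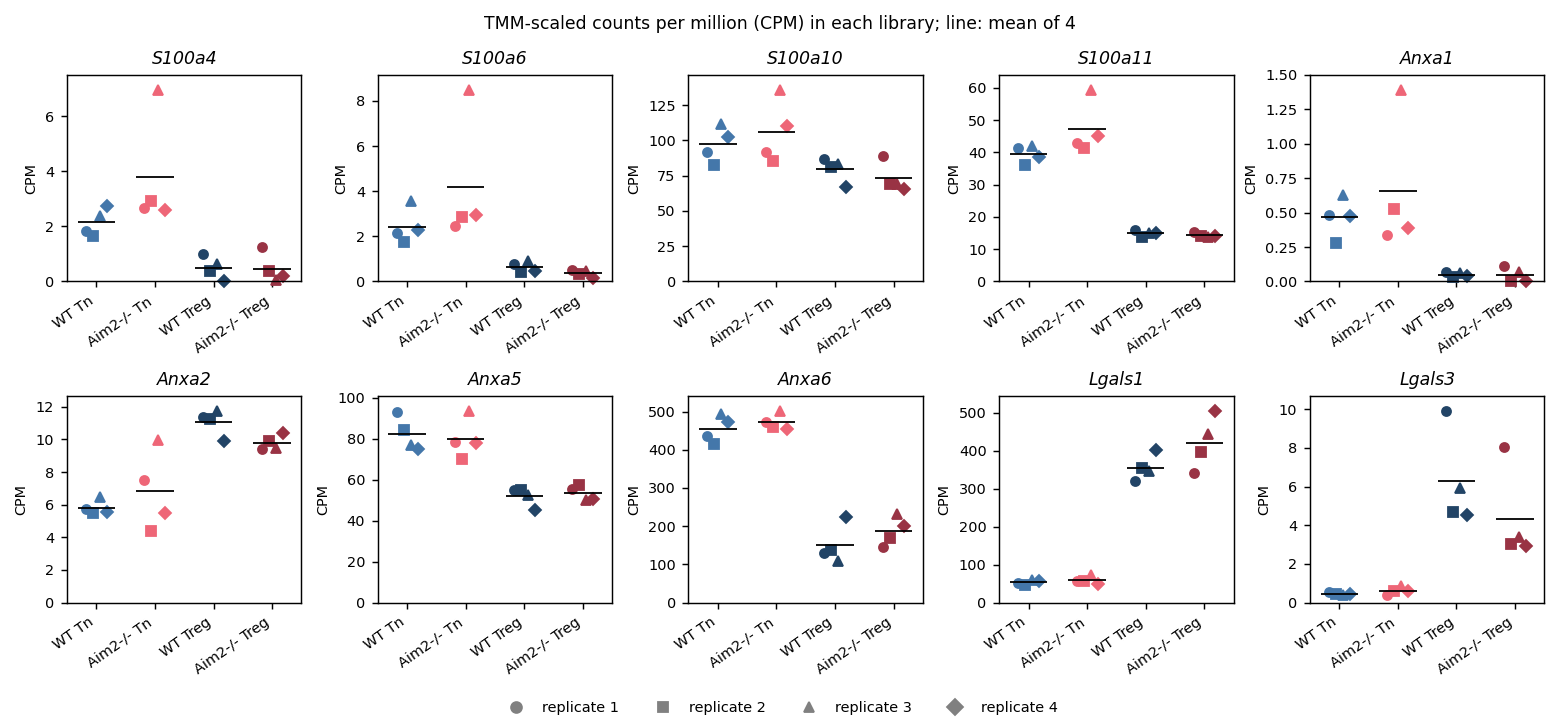
CPM in each of the 16 libraries for the 10 genes, 1 panel a gene, with the group on the x axis, marker shape for the replicate number and a line at the mean of 4. Lgals1 and Lgals3 are higher in every Treg library than in any Tn library, S100a4, S100a6, S100a11, Anxa1, Anxa5 and Anxa6 are lower, and Aim2-/- Tn replicate 3 is the highest of its group in all 10 panels.

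S100a4, also called metastasin, binds non-muscle myosin heavy chain and is a marker of motile and memory cells. It was measured at 1.83, 1.66, 2.39 and 2.73 CPM in WT Tn replicates 1 to 4 and at 0.992, 0.377, 0.639 and 0 CPM in WT Treg. In Aim2-/- cells it was at 2.65, 2.94, 6.96 and 2.61 CPM in Tn and 1.26, 0.364, 0.0684 and 0.189 CPM in Treg. Every Treg library lay below every Tn library, with 0 to 33 counts per Treg library. The log2 fold change was -2.13 ± 0.63 (SE) in WT (edgeR adjusted p = 0.0117) and -3.07 ± 0.67 in Aim2-/- (edgeR adjusted p = 0.00154), 4.38-fold and 8.39-fold lower. Without Aim2-/- Tn replicate 3 the second value was -2.65 ± 0.66, and without Aim2-/- Treg replicate 1 it was -4.19 ± 0.56. Within replicates 1 and 2 the fall was smaller, at -1.39 in WT and -1.86 in Aim2-/-, and limma-voom gave -2.996 in WT, with every call kept. Replicate 1 was the highest Treg library in both genotypes.

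S100a6, or calcyclin, binds the ubiquitin ligase adaptor CacyBP and several annexins. Its CPM values were 2.14, 1.73, 3.56 and 2.29 in WT Tn, 0.752, 0.434, 0.913 and 0.451 in WT Treg, 2.46, 2.85, 8.49 and 2.93 in Aim2-/- Tn and 0.496, 0.328, 0.479 and 0.151 in Aim2-/- Treg. The Treg values were again below all Tn values, on 4 to 30 counts per library. S100a6 fell by 1.97 ± 0.33 on the log2 scale in WT (edgeR adjusted p = 0.000364) and by 3.56 ± 0.51 in Aim2-/- (edgeR adjusted p = 6.07e-05), 3.92-fold and 11.8-fold. The value in Aim2-/- was -3.003 ± 0.34 without Tn replicate 3.

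S100a11, or calgizzarin, a partner of annexin A1, was the S100 member with the least spread. It was at 41.4, 36.2, 42.0 and 38.4 CPM in WT Tn and 15.97, 13.84, 15.03 and 14.96 CPM in WT Treg, and at 43.0, 41.4, 59.4 and 45.1 CPM in Aim2-/- Tn and 15.3, 13.97, 13.64 and 14.12 CPM in Aim2-/- Treg. The groups were far apart in both genotypes. S100a11 fell by 1.45 ± 0.087 in WT, 2.74-fold (edgeR adjusted p = 2.54e-07), and by 1.78 ± 0.12 in Aim2-/-, 3.44-fold (edgeR adjusted p = 1.24e-07), on the log2 scale. Its expected counts were not whole in all 16 libraries, so part of its reads were shared with other genes by the quantification, and its values are uncertain to that extent.

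S100a10, or p11, which binds annexin A2 without needing calcium, changed least of the 4 S100 genes in both genotypes. It was at 91.9, 82.9, 112 and 103 CPM in WT Tn and 86.6, 81.2, 83.7 and 67.1 CPM in WT Treg, and at 92.0, 85.2, 136 and 111 CPM in Aim2-/- Tn and 88.8, 68.9, 69.0 and 65.6 CPM in Aim2-/- Treg. Tn and Treg overlapped in both genotypes. The log2 fold change was -0.34 ± 0.12 in WT, with an edgeR adjusted p of 0.0206, and -0.59 ± 0.15 in Aim2-/-, with an edgeR adjusted p of 0.00416. Leaving out 1 library ended the WT call in 4 of 8 cases, with adjusted p between 0.0539 and 0.0915 for WT Tn replicate 3 and WT Treg replicates 2, 3 and 4. Within replicates 1 and 2 alone, neither genotype passed the edgeR test, at -0.06 (adjusted p = 0.442) in WT and -0.24 (adjusted p = 0.139) in Aim2-/-.

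Annexin A1, the glucocorticoid-induced ligand of formyl peptide receptors, was close to the floor. Anxa1 was at 0.482, 0.276, 0.628 and 0.472 CPM in WT Tn and 0.336, 0.526, 1.39 and 0.386 CPM in Aim2-/- Tn, from 7 to 38 counts. In Treg cells WT libraries were at 0.0684, 0.0290, 0.0609 and 0.0376 CPM and Aim2-/- libraries at 0.115, 0, 0.0684 and 0 CPM, with at most 3 counts in any. Summed over 4 libraries, WT Tn had 50 counts and WT Treg 6, a ratio of 9.51 (95% exact binomial interval 4.08 to 27.2), and Aim2-/- Tn had 76 and Aim2-/- Treg 5, a ratio of 14.2 (5.81 to 44.8), intervals that cover counting error alone. With no filter on low counts Anxa1 could be tested and was called lower by edgeR in both genotypes, at -3.15 ± 0.57 in WT (adjusted p = 0.000183) and -3.74 ± 0.74 in Aim2-/- (adjusted p = 0.00016).

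Annexin A2, which forms the heterotetramer with S100A10 at the inner face of the plasma membrane, went the other way from its partner. Anxa2 was at 5.76, 5.52, 6.45 and 5.56 CPM in WT Tn and 11.4, 11.2, 11.8 and 9.93 CPM in WT Treg, and rose 1.83-fold (log2 0.88 ± 0.12, edgeR adjusted p = 7.88e-05). In Aim2-/- cells it was at 7.54, 4.36, 9.99 and 5.50 CPM in Tn and 9.42, 9.90, 9.51 and 10.4 CPM in Treg. Here Tn replicate 3 lay within the Treg range and the Tn spread was wide (SD 2.48 CPM against 0.433 in WT Tn). The log2 fold change of 0.47 ± 0.22 did not pass (edgeR adjusted p = 0.0721), and without Tn replicate 3 it was 0.66 ± 0.18 and passed (edgeR adjusted p = 0.0075). DESeq2 (adjusted p = 0.048), limma-voom (0.0328), edgeR without the filter on low counts (0.0424) and edgeR with all 16 libraries in one fit (0.0288) also passed, as did the fit with the replicate block (0.0461). The other 8 of 13 alternatives did not, with adjusted p up to 0.339 (log2 0.28, within replicates 3 and 4), and of the 8 fits with 1 library left out the one without Tn replicate 3 passed.

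Annexin A5, known for binding phosphatidylserine on dying cells, was at 92.9, 84.4, 76.8 and 74.9 CPM in WT Tn and 54.9, 55.2, 52.8 and 45.4 CPM in WT Treg. Aim2-/- cells had 78.3, 69.9, 93.6 and 77.9 CPM in Tn and 55.6, 57.5, 50.3 and 50.6 CPM in Treg. All Treg libraries were lower than all Tn libraries. The fall was 1.64-fold in WT (log2 -0.71 ± 0.098, edgeR adjusted p = 8.77e-05) and 1.55-fold in Aim2-/- (log2 -0.63 ± 0.10, edgeR adjusted p = 0.000109).

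Annexin A6, a large annexin with a duplicated core that acts in membrane traffic and cholesterol handling, was measured in Tn at 435, 415, 493 and 472 CPM in the WT libraries and 473, 459, 502 and 454 CPM in those of Aim2-/- mice. After culture it was at 131, 138, 109 and 223 CPM for WT and 147, 168, 233 and 199.7 CPM for Aim2-/-. Anxa6 fell by 1.65 ± 0.20 in WT, 3.14-fold (edgeR adjusted p = 3.95e-05), and by 1.39 ± 0.13 in Aim2-/-, 2.63-fold (edgeR adjusted p = 1.16e-06), on the log2 scale. The Treg libraries themselves differed. The highest 3 in Anxa6, WT replicate 4 and Aim2-/- replicates 3 and 4, were also the 3 with the most Tbx21, the T-bet gene of type 1 helper cells (129, 136 and 140 CPM, against 14.9 to 76.3 in the other 5), and the least Foxp3 (282.5, 334 and 293 CPM, against 499.9 to 573.7). These values stand side by side, and their part in the Anxa6 levels was not tested.

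Galectin-1 rose in all Treg libraries. Lgals1 was at 52.7, 45.2, 58.2 and 56.3 CPM in WT Tn and 319, 355, 347 and 402 CPM in WT Treg, and at 56.6, 56.0, 72.2 and 49.7 CPM in Aim2-/- Tn and 341, 396, 445 and 505 CPM in Aim2-/- Treg. Lgals1 rose 6.45-fold in WT (log2 2.69 ± 0.10, edgeR adjusted p = 1.6e-08) and 6.92-fold in Aim2-/- (log2 2.79 ± 0.15, edgeR adjusted p = 1.17e-08), and every alternative setting and left-out library kept both calls, with log2 values between 2.59 and 3.20.

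Galectin-3, the galectin with a collagen-like tail that forms pentamers, rose from near the floor. Lgals3 was at 0.551, 0.434, 0.377 and 0.438 CPM in WT Tn and 0.410, 0.588, 0.879 and 0.579 CPM in Aim2-/- Tn, on 9 to 24 counts a library. In WT Treg it was at 9.92, 4.69, 5.94 and 4.55 CPM and in Aim2-/- Treg at 8.05, 3.02, 3.39 and 2.91 CPM. Replicate 1 was the highest Treg library in both genotypes, as for S100a4. The rise was 13.3-fold in WT (log2 3.73 ± 0.32, edgeR adjusted p = 3e-06) and 6.77-fold in Aim2-/- (log2 2.76 ± 0.40, edgeR adjusted p = 5.3e-05). In Aim2-/- cells it was 3.37 within replicates 1 and 2 and 2.03 within replicates 3 and 4, and both passed.

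**Figure D2:**
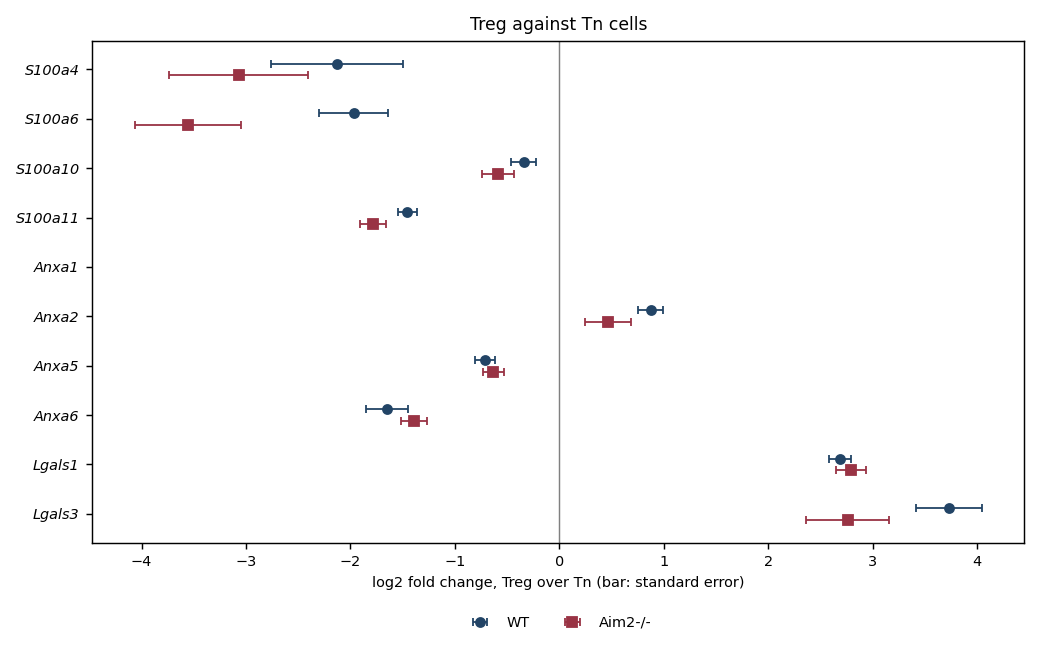
Log2 fold change of Treg over Tn on the x axis for 9 genes, circles for WT and squares for Aim2-/- with bars for the standard error, from the edgeR fits of 8 libraries. Lgals3 and Lgals1 stand at 2.69 to 3.73, Anxa2 at 0.47 and 0.88, and the S100 genes, Anxa5 and Anxa6 lie left of 0. Anxa1 did not pass the filter on low counts.

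The summed levels of the myeloid, CD8 T and NK cell, B cell and erythroid markers were lower in Treg than in Tn, with the exceptions among single genes given above, as were S100a4, S100a6 and Anxa1, and their part in the fall of these 3 genes was not tested.

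Between genotypes, none of the 10 members passed in Tn cells. 0 of 10 were called by edgeR at an adjusted p of 0.05, beside 0.231% of 13441 genes tested (31 genes). DESeq2, limma-voom and every other alternative run also called 0 members. At an unadjusted p under 0.05, 2 of the 10 were counted, S100a4 and S100a11, beside 10.3% of all genes. The genotypes overlapped for all 10, and 6.84% of all genes did not overlap. The log2 fold change was above 0 for 9 of the 10 members and for 52.7% of all genes, and its median was 0.27 over the members and 0.01 over all genes. Some marker genes, both of T cells and of other cells, did separate the genotypes in Tn. Higher in every Aim2-/- library were 1 of 9 CD4 T cell markers (Cd5, 332 to 358 against 363 to 449 CPM) and 1 of 8 naïve T cell markers (Klf2, 251 to 293 against 346 to 404 CPM). The erythroid sum was 0.67 to 2.55 CPM in WT and 3.26 to 4.89 CPM in Aim2-/-, without overlap, and 2 of its 4 genes, 1 of 5 B cell markers (Cd79a, 0.607 to 0.906 against 1.10 to 1.70 CPM) and 1 of 8 myeloid markers (Lyz2, 0.118 to 0.922 against 0.928 to 1.43 CPM) were higher in every Aim2-/- library, while the B cell, myeloid and CD8 T and NK cell sums overlapped. The part of these cells in the members' values was not tested.

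The largest of these differences were those of S100a4, at 0.83 ± 0.34 (95% interval 0.07 to 1.59, edgeR adjusted p = 0.455), and S100a6, at 0.80 ± 0.42 (-0.13 to 1.74, edgeR adjusted p = 0.531). S100a11 was at 0.28 ± 0.12 (0.01 to 0.55, edgeR adjusted p = 0.472). Anxa1 was at 0.52 with an interval of -0.56 to 1.60, Lgals3 at 0.46 (-0.25 to 1.17), Anxa2 at 0.25 (-0.26 to 0.77), Lgals1 at 0.16 (-0.12 to 0.44) and S100a10 at 0.14 (-0.19 to 0.48). Anxa6 and Anxa5 had the narrowest intervals, 0.08 (-0.11 to 0.27) and -0.02 (-0.26 to 0.22).

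One library weighed on this pattern. Aim2-/- Tn replicate 3 was the highest of its group for all 10 members, and in it Ccl5 was at 46.4 CPM against 8.85 to 18.2 in the other 3 libraries, Nkg7 at 19.6 CPM against 5.53 to 8.02, and Cxcr3 at 12.7 CPM against 3.92 to 4.30. Of the 13 markers of antigen-experienced T cells 9 were highest of the group in this library, and Cd44, Eomes, Id2 and Maf were not. The summed CD4 T cell markers were also highest there, at 5461 CPM against 4749 to 4907, with 8 of 9 genes highest. So were 3 of 12 other S100 genes, 2 of 8 other annexins, 2 of 7 other galectins and 8 of 17 partners and receptors. Of 8 naïve T cell markers 1 was highest there. The share over all genes is not given here, so this trait is not particular to the members. Ccl5, Nkg7 and Cxcr3, named after their values were seen, code for a chemokine, a cytotoxic granule protein and a chemokine receptor of antigen-experienced T cells. WT Tn replicate 3 was likewise the highest of its group for 7 of the 10 members and for Ccl5 (26.7 CPM against 11.1 to 13.1). Without Aim2-/- Tn replicate 3, S100a4 was at 0.37 ± 0.23, S100a6 at 0.20 ± 0.26, S100a11 at 0.15 ± 0.087 and Anxa1 at -0.13 ± 0.37, with adjusted p of 0.831, 0.939, 0.808 and 0.979 in edgeR. The part of antigen-experienced cells in these levels was not tested.

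**Figure D3:**
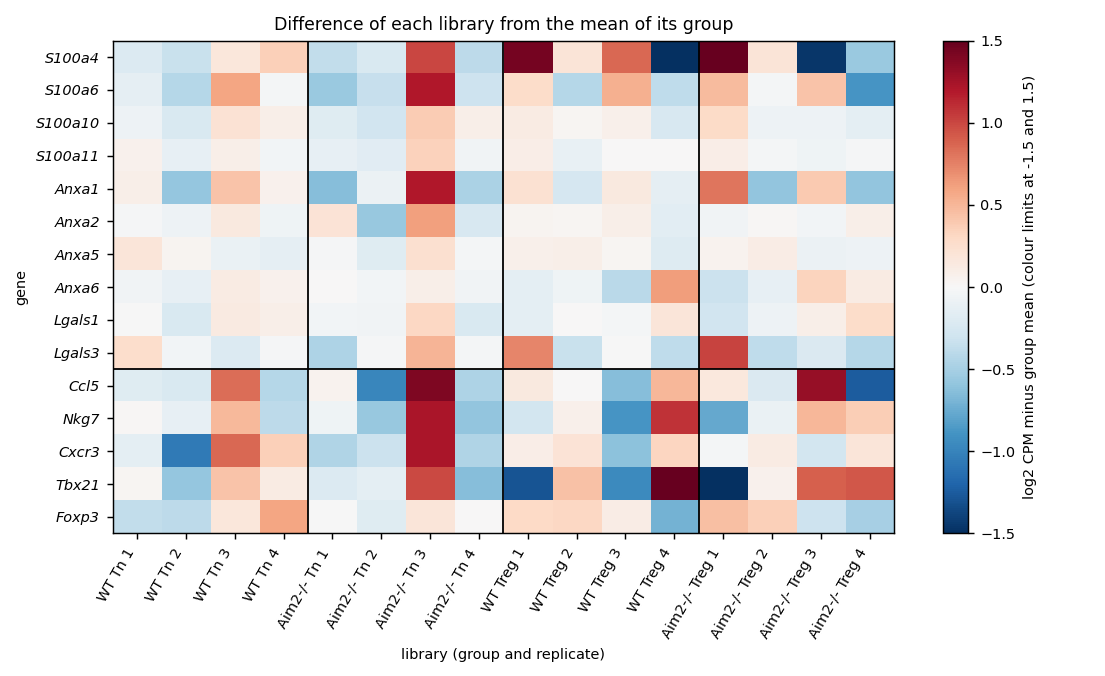
Log2 CPM of each library minus the mean of its group, in colour (red above, blue below, limits at -1.5 and 1.5), with the 10 members above the line and Ccl5, Nkg7, Cxcr3, Tbx21 and Foxp3 below it. The column of Aim2-/- Tn replicate 3 is red for all 10 members and for Ccl5, Nkg7 and Cxcr3, and Anxa6 is above its group mean in WT Treg replicate 4 and in Aim2-/- Treg replicates 3 and 4.

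In Treg cells, 0 of the 9 members tested were called by edgeR, beside 0.219% of 13221 genes (29 genes), and 0 had an unadjusted p under 0.05, against 2.31% of all genes. DESeq2 and limma-voom also called 0. The genotypes overlapped for all 9, and 2.33% of all genes did not. The log2 fold change was above 0 for 3 of the 9 and for 50.1% of all genes, and its median was -0.13 over the members and 0.0004 over all genes. S100a6 was at -0.81 (95% interval -1.73 to 0.11), Lgals3 at -0.54 (-1.42 to 0.34), Anxa2 at -0.19 (-0.39 to 0.01), S100a10 at -0.13 (-0.40 to 0.13) and S100a11 at -0.08 (-0.26 to 0.10). Anxa6 was at 0.30 (-0.20 to 0.81), Lgals1 at 0.23 (-0.02 to 0.49) and Anxa5 at 0.03 (-0.16 to 0.21). S100a4, on few counts, was at -0.13 with an interval of -2.27 to 2.02, so that a 4-fold difference either way was within it. The adjusted p of edgeR was 0.999 for all 9.

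**Figure D4:**
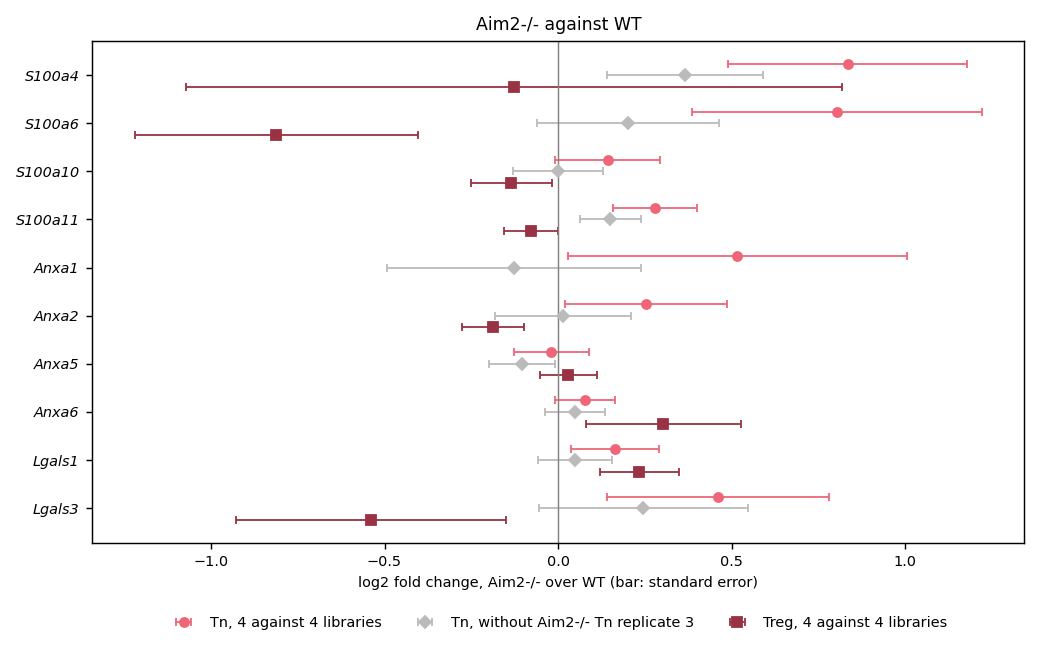
Log2 fold change of Aim2-/- over WT on the x axis with bars for the standard error, as circles for Tn, diamonds for Tn without Aim2-/- Tn replicate 3, and squares for Treg. S100a4 and S100a6 in Tn move from 0.83 and 0.80 to 0.37 and 0.20 when that library is left out, and no point passed the test.

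The question of whether the culture acted on these genes differently in the genotypes was put to the interaction of genotype and culture, fitted on all 16 libraries. None of the 10 members was called by edgeR, beside 0.0205% of 14669 genes (3 genes), and DESeq2 and limma-voom also called 0. At an unadjusted p under 0.05, 2 of 10 were counted, beside 3.49% of all genes, S100a6 at -1.61 ± 0.63 and S100a11 at -0.35 ± 0.15, each with an adjusted p of 1 in edgeR. Without Aim2-/- Tn replicate 3 these were -1.004 ± 0.50 and -0.22 ± 0.12. Lgals3, with a rise of 3.73 in WT and 2.76 in Aim2-/- on the log2 scale, differed by -0.99 (95% interval -2.11 to 0.13), and the difference for Lgals1 was 0.08 (-0.31 to 0.47). For Anxa2, called in WT but not in Aim2-/-, the difference was -0.43 (-0.99 to 0.13), which did not pass. These comparisons share libraries with those above and are no independent evidence.

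Levels were compared between genes only per length, as CPM per kb of annotated exon. In WT Tn, Anxa6 was the highest at 155 ± 12.1 CPM per kb (SD, n = 4), followed by S100a10 at 80.3 ± 10.5 and S100a11 at 77.3 ± 5.27, which did not differ beyond their spread, then Lgals1 at 58.8 ± 6.38 and Anxa5 at 46.3 ± 4.62. The other 5 were at most 3.68 ± 0.852 CPM per kb (S100a4), and Anxa1 was the lowest at 0.160 ± 0.0497. In WT Treg, Lgals1 was the highest at 394 ± 38.0 CPM per kb, above S100a10 at 65.7 ± 7.15 and Anxa6 at 51.3 ± 17.1, which overlapped. Anxa5 and S100a11 were both at 29.3, Lgals3 at 3.38 ± 1.35 and Anxa2 at 2.97 ± 0.213 did not differ beyond their spread, and S100a4, S100a6 and Anxa1 were the lowest, at 0.859, 0.467 and 0.0168. In Aim2-/- cells Anxa6 (161 CPM per kb) led in Tn and Lgals1 (467 CPM per kb) in Treg. The order depends on the length used: over the median transcript length, Anxa5 stood at 145 CPM per kb in WT Tn, ahead of S100a11 (77.3) and Lgals1 (74.4).

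Likeness was taken as the root mean square difference of centred log2 CPM over the 16 libraries, among 14669 genes. It is a description in which points share libraries and the large culture step. S100a6 and Anxa1 were each other's nearest gene (0.349), nearer than any gene outside the 10. Both rest on few counts in Treg, at most 3 per library for Anxa1 and 30 for S100a6, where the prior count of 2 weighs on the log2 values. S100a10 was nearest to S100a13 (0.106) and Tmsb4x (0.110), S100a11 to Cdk2ap2 (0.0998) and Myl12b (0.1003), and S100a4 to Gucy1a3 (0.603) and Pdk2 (0.618). Anxa2 was nearest to Gm4366 (0.170) and Eef1g (0.171), with 5919 genes nearer to it than S100a10, the nearest of the 10. Anxa5 was nearest to Rps4x (0.0847) and Rps3a1 (0.0917), Anxa6 to H2-M3 (0.140) and Ly6e (0.184), Lgals1 to Rps27l (0.137) and Pa2g4 (0.142), and Lgals3 to Fkbp1b (0.370) and 2610204G07Rik (0.375). S100a6 and Anxa1 were next nearest to genes outside the 10, S100a6 to Oas1b (0.401) and Gm15050 (0.433), Anxa1 to Gm15050 (0.409) and 5830468F06Rik (0.413).

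Of the other members of the 3 families, few of the S100 genes were expressed. Of 12 other S100 genes with an entry, 2 had enough counts to be tested in the culture contrasts, S100a1, higher after culture by 1.42 ± 0.30 in WT and 2.13 ± 0.36 in Aim2-/- on the log2 scale, and S100a13, a binding partner of secreted FGF1, lower by 0.43 ± 0.12 and 0.68 ± 0.13. S100a1 was at 0.124 to 0.371 CPM in Tn and 0.564 to 1.13 CPM in Treg. Of 8 other annexins 5 were tested, 4 higher and 1 lower in WT and 3 higher, 1 lower and 1 not called in Aim2-/-. Over all genes tested, 76.9% were called in WT (37.7% higher, 39.2% lower) and 79.3% in Aim2-/- (39.1% higher, 40.2% lower), so such calls are common.

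Anxa3 was the annexin with the largest step. It had 5 counts over the 4 WT Tn libraries and 5869 over WT Treg, a ratio of 1028 (95% exact binomial interval 440.3 to 3168), and 9 and 5620 counts in Aim2-/- (671, 353 to 1468). Treg libraries held 40.8 to 63.1 CPM and Tn libraries at most 0.161. Anxa4 rose by 3.46 ± 0.19 in WT and 3.67 ± 0.25 in Aim2-/- on the log2 scale and Anxa7 by 0.35 ± 0.098 and 0.40 ± 0.097, while Anxa11 fell by 0.76 ± 0.065 and 0.77 ± 0.078. All these calls hold in the edgeR test with Benjamini-Hochberg adjustment over all genes. Anxa9, chosen after its values were seen because it is the one of the 5 other annexins tested that was not called in Aim2-/-, was at 0.85 ± 0.32 in WT and 0.62 ± 0.32 in Aim2-/-.

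Of 7 other galectin genes 5 were tested, 2 higher and 3 lower in both genotypes, beside 76.9% of all genes called in WT and 79.3% in Aim2-/-. Lgalsl, a galectin-related gene, rose by 3.54 ± 0.21 in WT and 3.23 ± 0.20 in Aim2-/- on the log2 scale and Lgals7 by 2.502 ± 0.34 and 2.93 ± 0.24. Lgals8, a tandem-repeat galectin that recognises damaged vesicles, was at -1.93 ± 0.074 and -2.10 ± 0.10, and Lgals4 at -2.49 ± 0.15 and -2.92 ± 0.19, all called lower by edgeR. Lgals8 was at 48.8 to 58.6 CPM in Tn and 11.7 to 14.5 CPM in Treg, without overlap.

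Of 17 genes for partners and receptors of the 3 families, 12 were tested. In WT 5 were higher, 4 lower and 3 not called after culture, and in Aim2-/- 7 were higher and 5 lower. Over all genes tested, 76.9% were called in WT and 79.3% in Aim2-/-. Cd44, the hyaluronan receptor that galectins bind, rose by 1.83 ± 0.14 in WT and 2.15 ± 0.098 in Aim2-/- on the log2 scale. Cacybp, the partner of S100A6, rose by 1.27 ± 0.12 and 1.502 ± 0.14. Ager, the receptor RAGE for S100 proteins, fell by 3.29 ± 0.21 and 3.43 ± 0.23, and Ptprc, the CD45 gene and a galectin-1 ligand, by 1.25 ± 0.064 and 1.16 ± 0.12. Cd7, coding for a galectin-1 receptor, had 1942 counts in WT Tn and 13 in WT Treg, a ratio of 171 (95% exact binomial interval 99.5 to 320.9), and 1938 and 22 in Aim2-/- (82.0, 54.0 to 131). The receptor genes Tlr4, Fpr1, Fpr2, Fpr3 and Havcr2 were not tested, for too few counts. Between genotypes, 0 of the other S100 genes, annexins, galectins and partners were called by edgeR in Tn or in Treg, and at an unadjusted p under 0.05 the count was 0 of 10 other family genes tested and 1 of 12 partners in Tn, and 0 of 12 and 1 of 11 in Treg. Over all genes tested, 0.231% in Tn and 0.219% in Treg were called, and 10.3% and 2.31% had an unadjusted p under 0.05.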

How the data were processed

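RNA was measured in 16 libraries, 4 each of WT Tn, Aim2-/- Tn, WT Treg and Aim2-/- Treg, assigned and numbered from the deposited titles. The authors made stranded mRNA libraries and, per the labels and the study's methods, aligned reads by STAR (GRCm38) and used RSEM to quantify genes. They deposited the expected count (estimated count) per gene and library, neither normalized nor filtered; versions and the strand setting are not given in the sources used here. The text names both GENCODE m15 and an Ensembl annotation. The deposited tables number some libraries differently from the titles.

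Expected counts were rounded. A minimum of 10 counts in 4 or more of the compared libraries was required, and genes were tested with the two-sided quasi-likelihood test of edgeR 4.0.16 in R 4.3.3 (robust, TMM) on the 8 libraries of a comparison, or all 16 for the interaction, with Benjamini-Hochberg adjustment and a threshold of 0.05. The study's own normalization was TMM with limma-voom, which was run as an alternative (limma 3.58.1). DESeq2 1.42.0 was another. CPM uses TMM factors over all 16 libraries and the log2 values a prior count of 2. Exon lengths are from GENCODE M21, with entries for 52489 of 53090 identifiers (98.9%). Where a symbol had 2 entries, that with more counts was used. The steps were tested on simulated data. The members and lists were chosen with earlier results of these data known. All 10 members are named, and of each other list up to 4 genes with the smallest p per comparison; Aim2 is named as the check of the labels. Settings tried were RLE size factors, no filter and a stricter filter, a joint fit, the replicate block, the split of replicates 1 and 2 against 3 and 4, a GC and length correction (5 degrees of freedom), leaving out each library, and, added after the data were seen, library totals in place of TMM.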

Additional observations from a re-analysis of the deposited data

Results flagged for a closer look

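Among the 40 groups of 4 values (10 genes in 4 groups), 4 had a sample whose gap to its neighbour, divided by the range of the group, was above Dixon's critical value of 0.829, and chance gives about 1 in 20 such groups. S100a4 in Aim2-/- Tn replicate 3 was at 6.96 CPM with the next library at 2.94 (gap over range 0.923). S100a6 in the same library was at 8.49 CPM with the next at 2.93 (0.923). S100a10 in Aim2-/- Treg replicate 1 was at 88.8 CPM with the next at 69.0 (0.85), and Lgals3 in that library was at 8.05 CPM with the next at 3.39 (0.907). The cause was not tested. No member had a called difference of genotype effects between Tn and Treg.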

How the results depend on the processing

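No member gained or lost a genotype or interaction call, which stayed at 0, under any alternative or left-out library, and the culture calls counted 8 or 9 members in WT and in Aim2-/- when any 1 library was dropped. The culture calls of S100a10 and of Anxa2 in Aim2-/- moved as given above, Anxa1 was tested and called after culture without the filter alone; S100a10 in WT was also lost with library totals (-0.32, edgeR adjusted p = 0.0512), and no culture direction reversed. The number of genes called between genotypes depended on the setting. In Tn, against 31, it was 127 with DESeq2, 47 without a filter, 18 with the stricter filter, 64 in the joint fit, 51 with the covariate for replicates 1 and 2 against 3 and 4, 15 within replicates 1 and 2, 516 within replicates 3 and 4, and 17 to 28 with a library left out. In Treg, against 29, it was 52 with DESeq2, 17 with the stricter filter, 15 within replicates 1 and 2, 4 within replicates 3 and 4, and 10 to 17 with a library left out. For the interaction, against 3, it was 10 with DESeq2, 0 with the stricter filter (edgeR) and 2 to 5 with a library left out.

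Reversed signs were all of uncalled genotype values. In Tn, Anxa5 was 0.19 and Anxa6 -0.0051 within replicates 3 and 4, and with the GC and length correction S100a10 was -0.0137, Anxa6 -0.0165 and Lgals1 -0.024, also -0.0148, -0.0136 and -0.0241 with the replicate block added. With a library left out, Anxa5 ranged from -0.104 to 0.0289, S100a10 from -0.0001 to 0.22 and Anxa1 from -0.13 to 0.73. In Treg, S100a4 was 0.0897 with limma-voom and 0.26 within replicates 1 and 2, and with a library left out ranged from -1.30 to 0.40, and Anxa5 from -0.0348 to 0.0639. For the interaction, Lgals1 was -0.0933 within replicates 1 and 2, Anxa5 was -0.15 within replicates 3 and 4, and with a library left out Anxa5 ranged from -0.0112 to 0.14, Anxa1 from -1.42 to 0.0396 and Lgals1 from -0.0032 to 0.19. The cause was not tested.

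No label gives a batch or a shared animal for the replicate numbers. In WT Tn some genes split replicates 1 and 2 from 3 and 4, as Ctla4 did. Ccr7 was at 1378 and 1559 against 408 and 414 CPM, and Cd28 at 439 and 404 against 160 and 172 CPM. Other genes did not, such as Cd2 (286.5 to 293.4 CPM). In Aim2-/- Tn, Ctla4 was at 62.9 to 79.1 CPM. These genes were picked after their values were seen, and the cause of the split was not tested. Deviations of same-numbered libraries correlated at 0.22, 0.06, 0.35 and 0.03 between genotypes in Tn and at 0.49, 0.30, -0.02 and 0.42 in Treg, and not every library correlated best with its own number, so the numbers were not treated as pairs. With the replicate block, Anxa2 in Aim2-/- after culture was 0.53 and passed (edgeR adjusted p = 0.0461), and the block changed no other member's call; with the GC and length correction added it was 0.38 and did not pass (edgeR adjusted p = 0.118). Depth limits S100a4, S100a6 and Anxa1 in Treg and Lgals3 in Tn, which rest on at most 33 counts per library.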
